A study of Rattus norvegicus with 48 samples.

Results

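Hepatocytes make up most of the liver's mass, and the cells that line its vessels, hold its matrix and drain its bile are a minority of any piece of tissue. A list of 34 marker genes of those minority cells was followed here through 14 days of phenobarbital feeding in rats. It held 16 genes of stellate cells and matrix, 12 of endothelial cells and 6 of bile duct cells, each matched to probesets by its symbol. Of the 34 genes, 31 had a probeset under their symbol, 29 had a signal on at least 1 array and 27 passed the filter on low signal, against 18073 of 31099 probesets over the whole array. Cdh5, Clec4g and Sox9 had no probeset under their symbol and were not analysed here.

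The RNA came from the left lateral liver lobe of male Fischer (F344) rats that were 9 weeks old at the start of feeding, and each array carried 1 rat. The sodium salt of phenobarbital (PB) was mixed into the standard diet at 0, 50, 500 or 1000 ppm, the diet was eaten freely, and rats were killed after 1, 3, 7 or 14 days. The 0 ppm rats ate the same diet without PB, so that each day had its own controls. Of the 5 rats killed for each dose and day, 3 were hybridised, which made 16 groups and 48 arrays. No rat was sampled before feeding began, so day 1 is the earliest point of every group. The measurement was the MAS5 signal of Affymetrix rat expression arrays, a linear brightness that is comparable between arrays for 1 probeset and not between probesets.

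Liver sinusoidal endothelial cells form a fenestrated, scavenging lining that takes up hyaluronan, immune complexes and modified proteins through receptors such as stabilin-2, LYVE-1 and the inhibitory Fc receptor FcγRIIb, and that depends on VEGF signalling through VEGFR2 (Kdr). Hepatic stellate cells lie between this lining and the hepatocytes, store vitamin A, carry the PDGF-β receptor and are the main source of fibrillar collagen, and cholangiocytes line the bile ducts and carry keratins 7 and 19 and EpCAM. PB acts on hepatocytes through the nuclear receptor CAR, and the liver enlarges under it. In bulk tissue, fewer cells of a type and less RNA per cell cannot be told apart.

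The arrays listed a signal for 13479 to 16352 probesets, with a median of 15310.5, and an unlisted signal was taken as missing. Their descriptions opened with 1 of 6 numeric prefixes, each shared by 7 to 9 arrays. What a prefix marks is not given in the sources used here, and arrays that share it are called a run. In run 1, the median array listed 14232 probesets and the median signal was 525.9, against medians of 443.4 to 475.9 in the other runs. Runs 1, 2, 4 and 5 each held 4 groups, which were a different dose on each day. Run 1 held 2 of the 3 control rats of day 1 and all 3 rats given 1000 ppm for 14 days, and in those runs a difference between days was also a difference between doses. The title and group of 7 arrays disagreed with the animal number in their description, and arrays were grouped by animal number here. The p-values rest on 3 rats per group and measure the spread between these rats.

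Endothelial and matrix markers were well measured and bile duct markers barely. Of the 12 endothelial genes, Lyve1, Fcgr2b, Stab2, Kdr, Tie1, Tek and Eng had a signal on 48 arrays and Pecam1 on 47. Flt1, another VEGF receptor gene, was read by rule from its brightest probeset, which was listed on 3 arrays. A dimmer Flt1 probeset was listed on 36 and was tested in 8 single-day comparisons, with 0 calls (limma, 0 with an unadjusted p under 0.05). Vwf was listed on 1 array. Of the 6 bile duct genes, Epcam was listed on 48 arrays, Krt19 on 44 with signals of 82.84 to 255.8, and Cftr on 7, whereas Krt7 and Spp1 were listed on 0 arrays. The bile duct label therefore rested on Epcam and Krt19 in these data. Among the stellate and matrix genes, Col3a1 was listed on 48 arrays with signals of 4945 to 8581, the smooth muscle actin Acta2, a marker of activated stellate cells, on 46, and desmin (Des) on 28.

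The first question was whether these markers kept their level over the days of feeding. They were compared over the 4 doses together, 12 rats on each day. Of 23 member genes tested, 8 were higher on day 14 than on day 1 and 0 were lower, where 2.99% of all 12675 probesets tested were higher and 3.23% lower. In all, 11 of the 23 had an unadjusted p under 0.05. The 8 were the endothelial genes Fcgr2b, Lyve1, Kdr, Stab2 and Tie1, the matrix genes Dcn and Sparc, and the protease inhibitor Timp1.

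Fcgr2b encodes the inhibitory Fc receptor that clears small immune complexes in the sinusoid. On the 12 arrays of day 1 its signal had a lowest value of 894.4, a median of 1691 and a highest of 2144.4, and on day 14 these were 2003.6, 3040 and 3885.4. All but 1 of the day 14 arrays lay above every day 1 array. The difference was 1.01 ± 0.08 on the log2 scale (SE), a fold of 2.01 (limma, adjusted p = 3.93e-11). The medians of day 3 and day 7 were 3088.1 and 2855.6, so the higher level was already present on day 3 and the later days lay close to it.

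Lyve1, the hyaluronan receptor of sinusoidal and lymphatic endothelium, had a lowest, median and highest signal of 1113.9, 2278.2 and 3061.2 on day 1 and of 2899.3, 3477.8 and 4203.1 on day 14. Again 11 of 12 day 14 arrays exceeded the highest day 1 array, and the difference was 0.74 ± 0.10 (limma, adjusted p = 1.9e-06). Stab2, the scavenger receptor for hyaluronan, stood at 410.4, 677.5 and 1085.9 on day 1 and at 846.7, 1100.6 and 1370.9 on day 14. Its days overlapped more, with 7 of 12 day 14 arrays above the highest of day 1, and the difference was 0.65 ± 0.10 (limma, adjusted p = 2.33e-05). The other Lyve1 probeset, a dimmer one, gave a difference of 0.29 that missed the threshold (limma, adjusted p = 0.0559).

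The next genes code for receptors of endothelial growth signals. Kdr, the main signalling receptor for VEGF-A, had a lowest, median and highest signal of 1394.2, 2226.9 and 2608.8 on day 1 and of 2378.7, 3311.2 and 3939.7 on day 14. The difference was 0.61 ± 0.07 (limma, adjusted p = 3.26e-07), and 11 of 12 day 14 arrays lay above all of day 1. Tie1, an orphan receptor kinase that works beside the angiopoietin receptor Tie2, went from 140.6, 182.3 and 262.3 to 238.2, 279.1 and 386, a difference of 0.62 ± 0.10 (limma, adjusted p = 4.08e-05). Tek, which encodes Tie2 itself, had medians of 671.9 and 881 and a difference of 0.23 ± 0.08 that missed the threshold on day 14 (limma, adjusted p = 0.0657). It passed on day 7 against day 1, with 0.32 (limma, adjusted p = 0.0163). Pecam1, the junctional adhesion molecule CD31, differed by 0.11 (limma, adjusted p = 0.533) and Eng, a co-receptor for TGF-β and BMP ligands, by 0.04 (limma, adjusted p = 0.742). Pecam1 ranged from 202.6 to 341.2 on day 1 and from 202.7 to 432.7 on day 14, and Eng from 749.1 to 982.1 and from 761.1 to 1009, so the days overlapped for both.

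**Figure D1:**
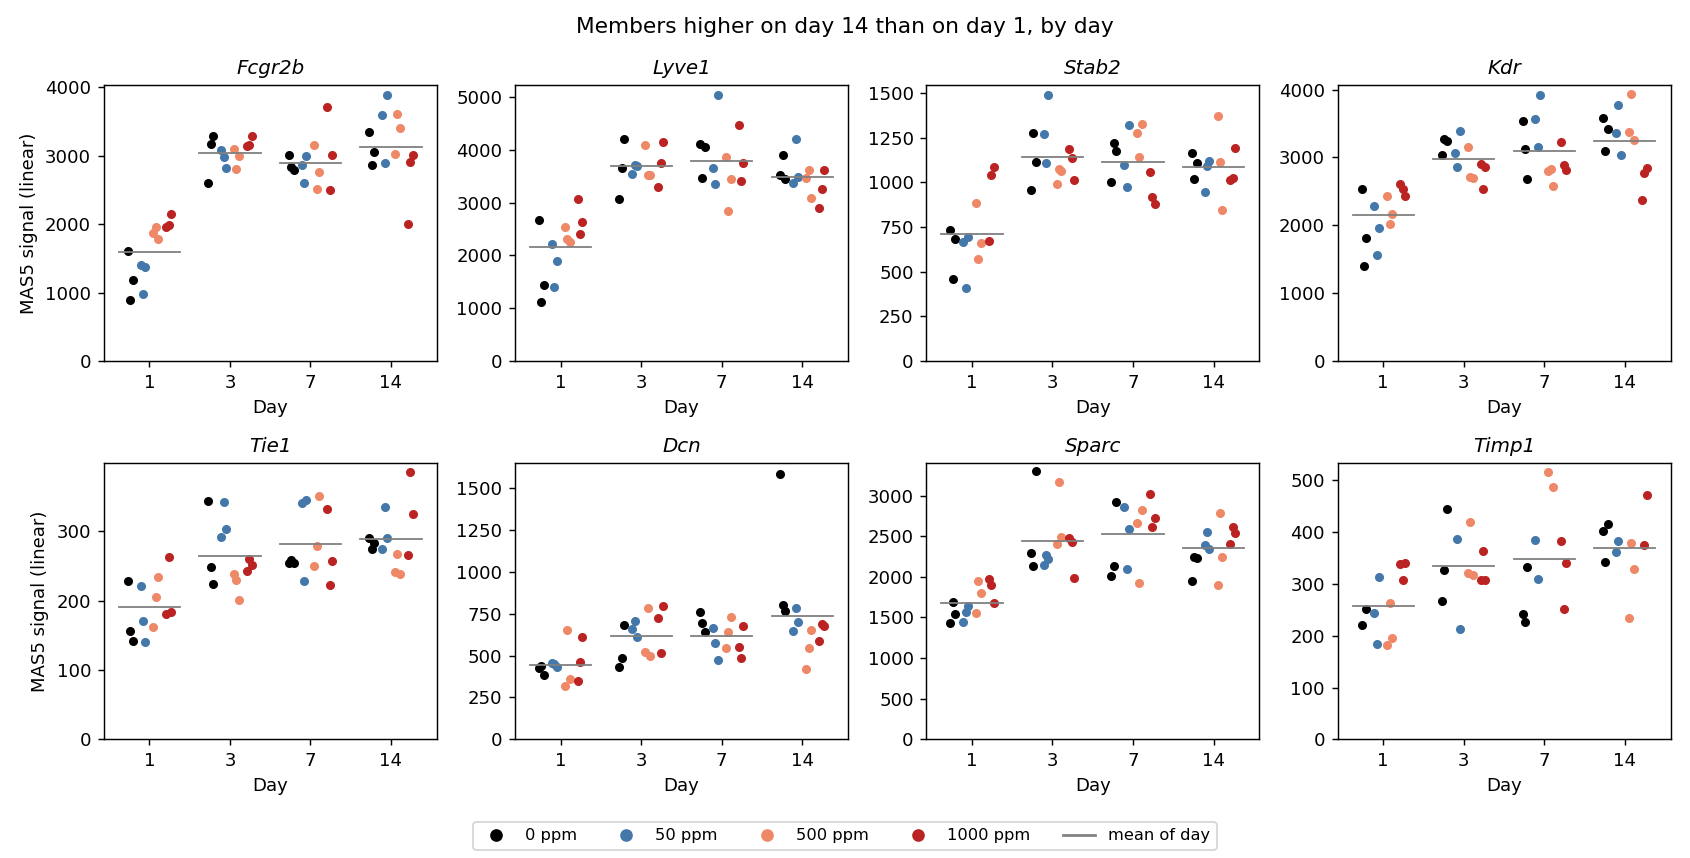
MAS5 signal (linear) of the 8 genes that were higher on day 14 than on day 1, by day, with 1 point per rat coloured by PB dose and the mean of each day as a gray line. For Fcgr2b, Lyve1 and Kdr 11 of 12 day 14 points lie above all day 1 points, and the level of day 3 is close to that of days 7 and 14.

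Dcn, the small proteoglycan decorin that binds collagen fibrils, had a lowest, median and highest signal of 317.3, 433 and 650.8 on day 1 and of 419.8, 683.7 and 1584.2 on day 14. The highest was a single control rat, and 8 of 12 day 14 arrays exceeded day 1. The difference was 0.69 ± 0.12 (limma, adjusted p = 0.000264). Sparc, a matrix-binding glycoprotein made by stellate and endothelial cells, went from 1428.3, 1657.7 and 1971.6 to 1901.4, 2366.8 and 2786.5, with 10 of 12 day 14 arrays above day 1 and a difference of 0.48 ± 0.08 (limma, adjusted p = 8.71e-05). Its dimmer probeset differed by -0.07 (limma, adjusted p = 0.725), so the 2 probesets of Sparc disagreed. Timp1, an inhibitor of matrix metalloproteinases, was listed on 11 arrays of day 1, with a median of 252.3, and on 10 of day 14, with a median of 377.1. Its difference of 0.56 ± 0.12 (limma, adjusted p = 0.00406) was lost when absent and low signals were set to 90 (limma, adjusted p = 0.651).

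The classes were also read as a whole. The median difference between day 14 and day 1 was 0.61 over the 8 endothelial genes tested, all 8 of them positive. Over the 14 stellate and matrix genes tested it was 0.06, with 9 positive and 5 negative, and over all probesets it was -0.01. The fibrillar collagen gene Col3a1 differed by -0.05 and the PDGF receptor gene Pdgfrb by -0.15 (limma, adjusted p = 0.237), and Epcam differed by 0.12 (limma, adjusted p = 0.523). The other stellate and matrix genes that did not pass were Col1a1, Col1a2, Col4a1, Col4a2, Col5a2, Col14a1, Ecm1, Reln and Acta2, with differences of -0.12 for Col14a1 to 0.21 for Acta2. Reln, a secreted glycoprotein by which quiescent stellate cells are known, had a lowest, median and highest signal of 1546.5, 1762 and 1985.6 on day 1 and of 1296, 1702.6 and 2283.8 on day 14, and the day 14 arrays reached beyond day 1 on both sides. The keratan sulfate proteoglycan gene Lum, listed on 38 arrays, and Des, on 28, had fewer than 2 signals in some groups and were not tested in this fit. In a model with additive effects of dose and day, Lum differed by 0.29 (limma, adjusted p = 0.665) and Des by 0.13 (limma, adjusted p = 0.794) between day 14 and day 1.

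By the probeset used for each gene, all of these genes but Timp1 were already past the threshold on day 3. Against day 1, 7 of 24 members tested were higher on day 3 and 0 lower, where 1.75% of all probesets were higher and 1.09% lower. On day 7, 9 were higher and 0 lower, where 1.6% and 1.62% of all probesets were. On day 3 the differences were 0.98 for Fcgr2b, 0.82 for Lyve1, 0.72 for Stab2, 0.53 for Sparc, 0.49 for Kdr and 0.48 for both Tie1 and Dcn. The dimmer probesets of Lyve1 and Sparc did not pass on day 3, at 0.26 and 0.005 (limma, adjusted p = 0.13 and 0.988). Day 7 added Timp1 with 0.47 and Tek. On day 7 the dimmer Lyve1 probeset passed, at 0.35 (limma, adjusted p = 0.026). That of Sparc did not, at 0.15 (limma, adjusted p = 0.442). The 3 comparisons share the day 1 arrays and are not independent of each other.

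With run as a block, all 8 genes stayed past the threshold, with adjusted p between 5.43e-10 for Fcgr2b and 0.00115 for Timp1 (limma). Within the 6 runs, day 14 exceeded day 1 in 6 of 6 for Fcgr2b (differences of 0.637 to 1.412), Lyve1 (0.382 to 1.355), Kdr (0.393 to 0.925), Stab2 (0.021 to 1.028), Tie1 (0.131 to 1.115) and Sparc (0.21 to 0.639). Dcn and Timp1 were higher in 5 of 6. These within-run differences rest on 1 to 3 arrays per day, with a single day 1 array in run 4 and a single day 14 array in run 6. They also span doses, since in 4 of the runs each day held another dose.

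The control rats alone, 3 on each day, showed the difference without PB in the diet. Of 25 members tested in them, 4 were higher on day 14 than on day 1 and 0 were lower, where 0.107% of all probesets were higher and 0.0426% lower. Fcgr2b read 1601, 894.4 and 1187 in the 3 control rats of day 1 and 3340, 2862 and 3055 in those of day 14. Lyve1 read 2660, 1114 and 1442 on day 1 and 3525, 3892 and 3447 on day 14, and Kdr read 2535, 1394 and 1816 against 3576, 3087 and 3425. For all 3 genes each day 14 control exceeded each day 1 control, and how many other probesets separated in this way was not counted. The lower 2 day 1 readings of each gene came from run 1, which held none of the day 14 controls. The log2 differences were 1.37 ± 0.16 for Fcgr2b (limma, adjusted p = 6.92e-06), 1.16 ± 0.19 for Lyve1 and 0.85 ± 0.14 for Kdr (limma, adjusted p = 0.00291 for both). The dimmer Lyve1 probeset gave 0.60 and missed the threshold (limma, adjusted p = 0.2). Dcn, at 422.8, 437.1 and 384 on day 1 and 1584, 803 and 762.8 on day 14, differed by 1.26 ± 0.24 (limma, adjusted p = 0.017). With run as a block, Fcgr2b stayed past the threshold (limma, adjusted p = 0.00526) and Lyve1, Kdr and Dcn did not (limma, adjusted p = 0.218, 0.148 and 0.151). Quantile scaling moved the median of all probesets in this comparison from -0.02 to 0.11.

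A list of other endothelial genes, also drawn up with earlier results of these data known, was read beside the members. Of 21 tested, 9 were higher on day 14 than on day 1 and 0 were lower, at the background shares given above. They included Ptprb, the vascular receptor phosphatase VE-PTP, with 0.56, the sialomucin Emcn with 0.57, Ramp2, the partner of the adrenomedullin receptor, with 0.51, the sinusoidal ligand Bmp2 with 0.47 and the orphan receptor Gpr182 with 0.44. The mannose receptor Mrc1 and the VEGF co-receptor Nrp1 both differed by 0.37, and the transcription factor Ets1 by 0.30. The summed signal of the 37 listed genes of that list had a lowest, median and highest value of 10015.7, 13670.6 and 16320.8 on day 1 and of 13403.8, 16200.4 and 19093.5 on day 14. The 2 ranges overlapped. Here and below, a sum of signals leans to its bright probesets and adds nothing for an unlisted signal. It can include genes that were not tested.

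Lists of other genes and cell types were read the same way. Of 7 other stellate genes tested, Ccn2, which encodes connective tissue growth factor, was higher by 0.74 (limma, adjusted p = 0.00251) and Lrat, which makes the retinyl esters that these cells store, by 0.26 (limma, adjusted p = 0.0478, and 0.0602 with run as a block). Of 25 other matrix genes, Timp2 (0.27) and Mgp (0.35), an inhibitor of calcification, were higher and 0 were lower. Of 8 genes tested on the list of other bile duct genes, Anxa5 was higher by 0.25 and 2 fell, all on the log2 scale. Those 2 were Krt18, by 0.25, and Slc4a2, the anion exchanger of bile secretion, by 0.22. Which cells the Krt18 signal came from was not tested. None of 8 Kupffer cell, 6 hepatocyte, 2 red cell, 1 lymphocyte and 1 mesothelial genes tested passed, and the neutrophil gene S100a9 fell by 0.57 on the log2 scale (limma, adjusted p = 0.0345). The summed Kupffer signal ranged from 15111.7 to 23529.1 with a median of 16726.1 on day 1 and from 13916.2 to 19106 with a median of 15372 on day 14. The summed hepatocyte signal ranged from 203367.1 to 308529 on day 1 and from 215412.1 to 316483.7 on day 14. The share of these other cells in the endothelial difference was not tested.

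The 250 bases before the gene start were read for 21 members from RefSeq promoters of the GRCr8 build, because several genes that rose with day code for endothelial receptors. Endothelial genes are commonly bound by ETS-family factors, and the ETS cores searched were CCGGAA and CAGGAA on either strand. The sequences of Kdr (chr14:32571813-32572062, plus strand), Stab2 (chr7:23320563-23320812, minus strand), Lyve1 (chr1:174410978-174411227, minus strand) and Tie1 (chr5:137304982-137305231, minus strand) are shown 5′ to 3′ on the strand of the gene, with ETS cores in capitals.
Kdr: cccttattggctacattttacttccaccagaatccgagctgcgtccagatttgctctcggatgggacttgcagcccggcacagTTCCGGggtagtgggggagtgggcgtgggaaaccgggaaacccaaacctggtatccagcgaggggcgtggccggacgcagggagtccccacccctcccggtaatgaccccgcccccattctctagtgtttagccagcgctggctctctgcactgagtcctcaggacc
Stab2: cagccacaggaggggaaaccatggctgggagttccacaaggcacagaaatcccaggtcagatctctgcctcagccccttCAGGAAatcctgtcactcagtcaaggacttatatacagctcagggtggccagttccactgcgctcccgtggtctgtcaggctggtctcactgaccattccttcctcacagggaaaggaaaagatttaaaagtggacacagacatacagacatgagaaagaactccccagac
Lyve1: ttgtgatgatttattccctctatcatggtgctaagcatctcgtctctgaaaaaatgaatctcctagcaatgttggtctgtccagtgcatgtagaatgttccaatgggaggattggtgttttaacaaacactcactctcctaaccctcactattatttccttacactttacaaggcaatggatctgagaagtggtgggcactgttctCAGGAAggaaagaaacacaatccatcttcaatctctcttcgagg
Tie1: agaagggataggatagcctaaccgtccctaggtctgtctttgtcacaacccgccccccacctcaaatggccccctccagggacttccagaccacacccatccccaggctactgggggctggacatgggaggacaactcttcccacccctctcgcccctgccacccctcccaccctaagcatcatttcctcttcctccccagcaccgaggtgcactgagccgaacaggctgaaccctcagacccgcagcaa

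Of the cores searched, Kdr, Stab2 and Lyve1 held 1 each and Tie1 held 0, while Sparc and Timp1 held 2 each. Other forms of the ETS core were not searched or marked. One or both cores occurred in 34.9% of 27457 promoters of this length, so that a core in a given promoter is common, and a match marks letters and not a bound site. Eng, which differed by 0.04 between day 14 and day 1, also held 1. The GATA letters AGATAA and TGATAA, present in 10% and 7.87% of promoters, occurred in 0 of the 21.

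The second question was the response to PB dose, averaged over the 4 days, with 12 rats per dose against 12 controls. Few members moved. At 50 ppm 0 of 24 members tested passed the threshold in limma, 0 had an unadjusted p under 0.05, and 0.149% of all probesets were higher and 0% lower. At 500 ppm 1 was higher and 1 lower of 24, where 4.64% and 3.99% of all probesets were, and at 1000 ppm 1 was higher and 1 lower of 23, where 7.11% and 7.01% were. Those shares are not far from the shares among all probesets. Both doses named the same genes, with Epcam higher and Pdgfrb lower. The doses share the control arrays.

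Epcam encodes an adhesion molecule of bile duct and other simple epithelia. Its lowest, median and highest signals were 401.1, 542.5 and 710.6 in controls, 386.7, 608.6 and 703.6 at 50 ppm, 532.8, 661.2 and 932.8 at 500 ppm and 483.8, 797.6 and 1093.7 at 1000 ppm. At 1000 ppm 9 of 12 rats exceeded the highest control, and the lower doses overlapped with the controls more. The log2 difference from controls was 0.09 at 50 ppm (limma, adjusted p = 0.872), 0.38 ± 0.10 at 500 ppm (limma, adjusted p = 0.0118) and 0.53 ± 0.10 at 1000 ppm, a fold of 1.45 (limma, adjusted p = 0.000222). The 1000 ppm value stayed past the threshold with run as a block (limma, adjusted p = 0.000388). With arrays grouped by title the 500 ppm value missed it, at 0.34 (limma, adjusted p = 0.0564). The 1000 ppm and 500 ppm diets differed by 0.15 ± 0.10 (limma, adjusted p = 0.946), and 0 of 23 members passed in that comparison, where 1 had an unadjusted p under 0.05 and 0% of all probesets were higher or lower.

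Pdgfrb encodes the receptor through which PDGF-BB drives stellate cell and pericyte growth. The lowest, median and highest signals were 300.2, 349.5 and 486.6 in controls, 286.2, 384.4 and 422.5 at 50 ppm, 251.8, 300.4 and 369.7 at 500 ppm and 216.2, 284.5 and 358.3 at 1000 ppm. The ranges overlapped, and 11 of 12 rats at 1000 ppm lay below the control median. The log2 difference was -0.04 at 50 ppm, -0.32 ± 0.08 at 500 ppm (limma, adjusted p = 0.0055) and -0.38 ± 0.08 at 1000 ppm, a fold of 0.769 (limma, adjusted p = 0.000465). At 1000 ppm the single days gave -0.19, -0.44, -0.42 and -0.47 on days 1, 3, 7 and 14, and none of these passed alone (limma, adjusted p = 0.604, 0.102, 0.167 and 0.0762). After quantile scaling the day 14 value was -0.78 and passed (limma, adjusted p = 0.00212). Both genes stayed past the threshold at 1000 ppm in all 48 fits that left out 1 array.

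**Figure D2:**
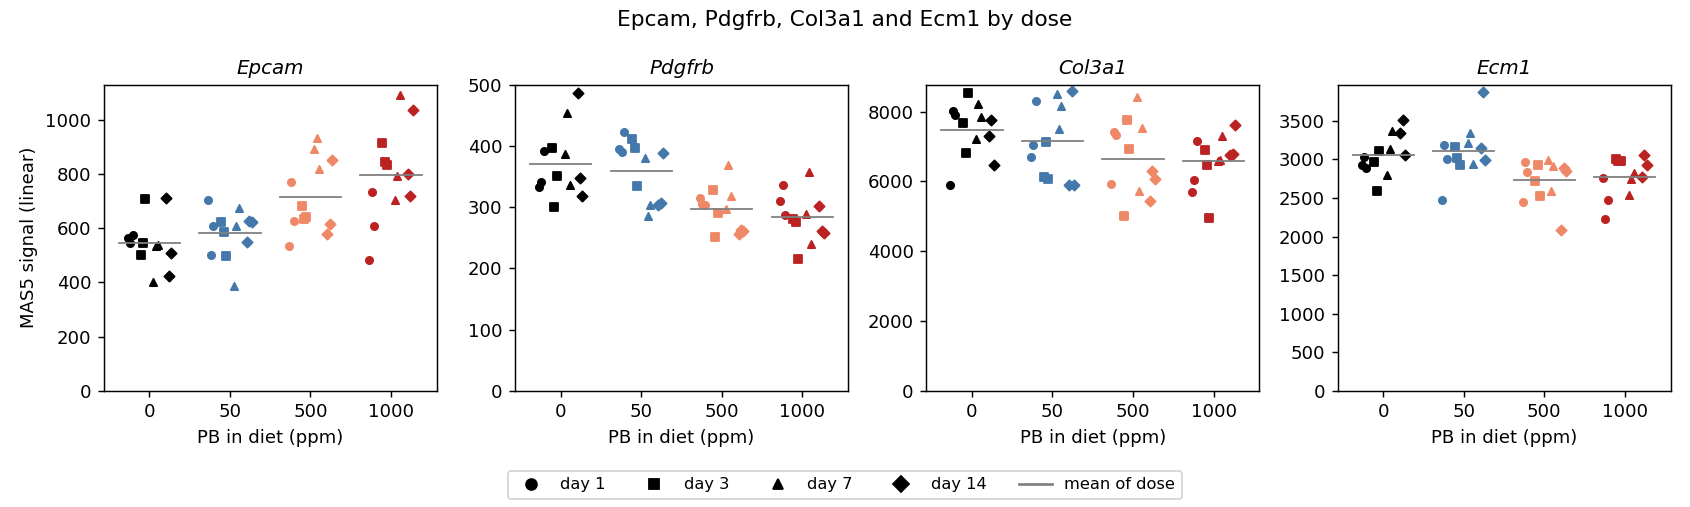
MAS5 signal (linear) of Epcam, Pdgfrb, Col3a1 and Ecm1 by PB dose, with 1 point per rat, the marker showing the day and the gray line the mean of each dose. Epcam is higher and Pdgfrb lower at 500 and 1000 ppm, and the arms of Col3a1 and Ecm1 overlap with smaller differences that missed the threshold.

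Several matrix genes lay lower at the upper doses without passing the threshold. The median difference of the 14 stellate and matrix genes tested was -0.14 at 1000 ppm, 11 of 14 negative, and -0.16 at 500 ppm, 9 of 14 negative, against -0.01 and -0.0036 over all probesets. Both counts of negative genes include Col1a1 by its brighter probeset, whose sign its dimmer probeset opposed. For Col3a1 the control range was 5905.9 to 8517.9 with a median of 7727.9, and the 1000 ppm range was 4945.5 to 7620.2 with a median of 6691.2. All 12 rats at 1000 ppm lay below the control median, and the difference was -0.19 ± 0.08 (limma, adjusted p = 0.121). Col5a2, which helps to set the width of collagen fibrils, differed by -0.20 (limma, adjusted p = 0.0925, and 0.0428 after quantile scaling). Col14a1, a collagen on the surface of fibrils, also differed by -0.20 (limma, adjusted p = 0.138). Ecm1, a secreted matrix protein of hepatocytes and stellate cells, had medians of 3046.2 in controls and 2840.5 at 500 ppm and a difference there of -0.17, with all 12 rats below the control median (limma, adjusted p = 0.0624, and 0.0428 with run as a block). At 1000 ppm it differed by -0.14 (limma, adjusted p = 0.0992). Acta2, the actin of activated stellate cells, had a median of 182.9 in controls and 193.5 at 1000 ppm and differed by 0.07 (limma, adjusted p = 0.821), and Reln differed by -0.07 (limma, adjusted p = 0.562). The 8 endothelial genes tested had a median difference of 0.09 at 1000 ppm, from -0.11 for Tek to 0.17 for Fcgr2b, and 0 of them passed (limma, 1 with an unadjusted p under 0.05).

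Col1a1, the major fibrillar collagen chain, gave opposite signs on its 2 probesets. The brighter one, used for the gene here, had medians of 385.4 in controls and 332.6 at 1000 ppm and differed by -0.25 (limma, adjusted p = 0.129), and the dimmer one differed by 0.48 ± 0.11 (limma, adjusted p = 0.00257). At 500 ppm the dimmer probeset differed by 0.37 (limma, adjusted p = 0.0332). No direction is given for Col1a1 for that reason.

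One control array had a part in how many members passed. Without replicate 1 of the 0 ppm group on day 1, 3 members were higher and 4 lower at 1000 ppm, with Lyve1 (0.24, limma, adjusted p = 0.0394) and Fcgr2b (0.22, limma, adjusted p = 0.0435) joining Epcam, and Col1a1 (-0.32), Col14a1 (-0.26) and Col5a2 (-0.23) joining Pdgfrb. The Col1a1 value is that of its brighter probeset, whose sign the dimmer one opposed. The array left out was the only day 1 control outside run 1, which held no day 1 rat given 1000 ppm. Without it, the day 1 part of this comparison was also a difference between runs.

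The other gene lists gave counts on the same side for matrix. They were also chosen with earlier results of these data known, so that these counts are not an independent test. At 1000 ppm 7.11% of all probesets were higher and 7.01% lower. Of 25 other matrix genes tested at 1000 ppm 0 were higher and 5 fell on the log2 scale, the basement membrane genes Col18a1 by 0.29 and Nid1 by 0.34, fibronectin (Fn1) by 0.19, Col6a1 by 0.28 and Mgp by 0.30. Of 7 other stellate genes 2 fell, the adhesion protein gene Tgfbi by 0.24 and the growth factor carrier Igfbp3 by 0.33. None of 21 other endothelial genes passed. Of 8 genes tested on the list of other bile duct genes 1 did, the keratin Krt18, higher by 0.22. Whether the Krt18 signal came from bile duct cells was not tested. The summed signal of 14 listed stellate genes ran from 11178.9 to 13943.2 with a median of 12597 in controls and from 9514.9 to 12268.3 with a median of 11006.4 at 1000 ppm, and the ranges overlapped. Of 8 Kupffer cell genes tested, 2 were lower, where 7.01% of all probesets were. C1qa fell by 0.21 and the receptor Csf1r by 0.23 on the log2 scale, and the summed signal of the list had a median of 17357.2 in controls (13992.1 to 23529.1) and 14236.5 at 1000 ppm (13081.2 to 19806.5). None of 6 hepatocyte, 2 red cell, 1 neutrophil, 1 lymphocyte and 1 mesothelial genes passed. Their part in the stellate and matrix differences was not tested.

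Krt19, the keratin that marks cholangiocytes, had no call beside that of Epcam. At 500 ppm it differed by 0.02 (limma, adjusted p = 0.96). At 1000 ppm it was listed on 9 of 12 arrays and was not tested over the 4 days in this fit. It differed by 0.06 on day 1 and 0.13 on day 3 (limma, adjusted p = 0.955 and 0.879). A larger difference of 0.64 on day 7 also missed the threshold (limma, adjusted p = 0.247). Its sign was reversed, at -0.21, once the fit took account of run (limma, adjusted p = 0.971). Over the 4 days, Krt19 differed by 0.12 ± 0.16 in the model with additive dose and day (limma, adjusted p = 0.724).

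**Figure D3:**
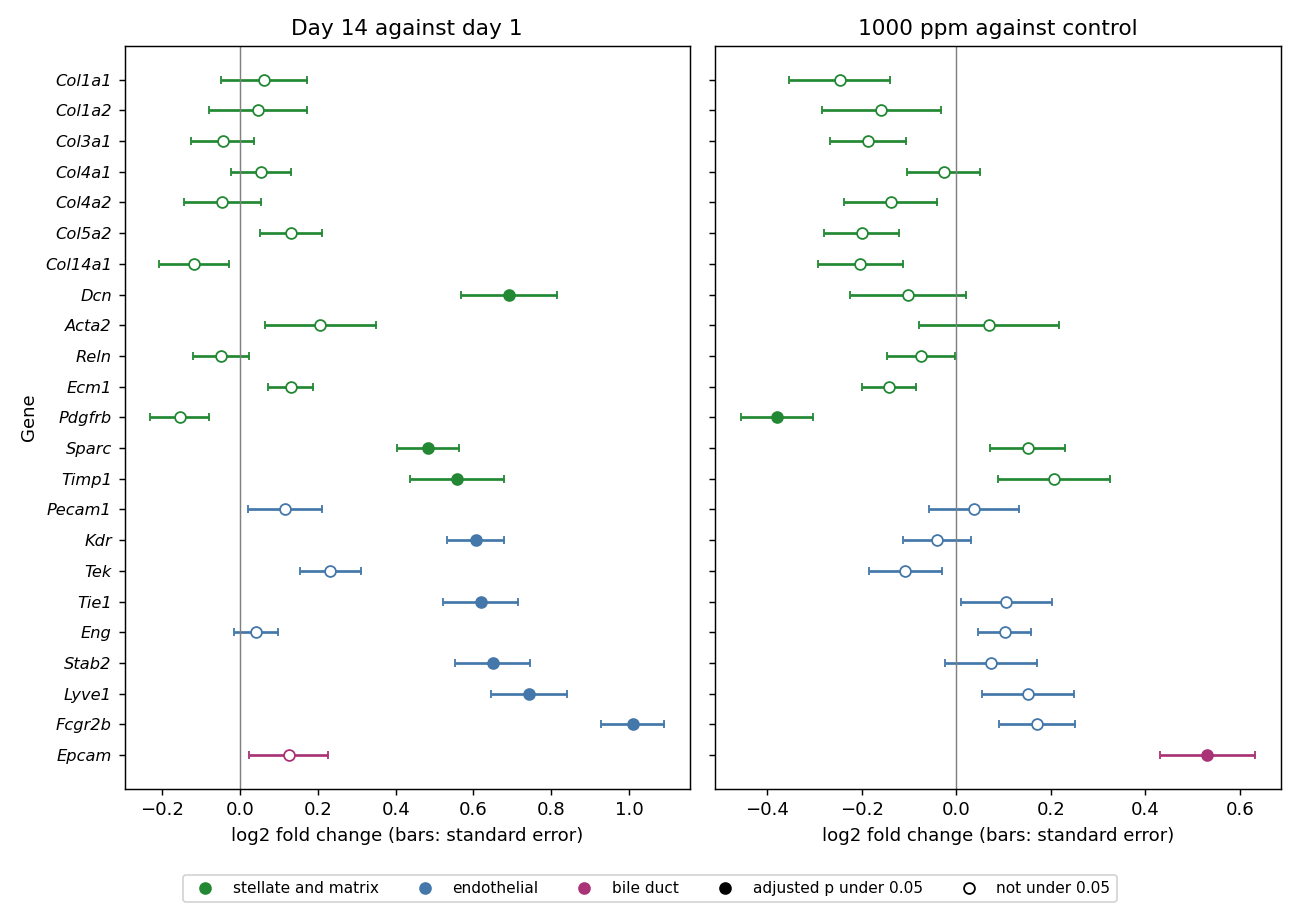
Log2 difference with its SE of the 23 members tested in both comparisons, day 14 against day 1 over 4 doses and 1000 ppm against control over 4 days, 12 arrays per arm, with filled symbols past the adjusted p threshold of 0.05. Endothelial genes lie to the right for day, with Fcgr2b at 1.01, and for dose Epcam (0.53) and Pdgfrb (-0.38) are filled.

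The third question was whether the response to PB depended on the day. The 12 comparisons of 1 dose with the controls of the same day tested 24 to 26 members each. Over them, members passed the threshold 6 times, each time higher, where 1.03% of all the probeset tests were higher and 0.853% lower. That split depended on scaling, since 5 members were lower after quantile scaling and 8 after division by the array median. Fcgr2b was higher on day 1 at 500 ppm by 0.65 (limma, adjusted p = 0.0422), where 0.554% of all probesets were higher, and at 1000 ppm by 0.76 (limma, adjusted p = 0.00598), where 1.69% were. It read 1871, 1954 and 1781 at 500 ppm and 1953, 1985 and 2144 at 1000 ppm, all above the 3 controls, of which the highest was 1601. At 50 ppm it read 1403, 978.8 and 1380, within the range of the controls. How many other probesets lay wholly above the day 1 controls at 500 or 1000 ppm was not counted. Lyve1 was higher on day 1 at 1000 ppm by 0.73 (limma, adjusted p = 0.0367), although the highest control, at 2660, exceeded the lower 2 of its readings of 3061, 2402 and 2626. The dimmer Lyve1 probeset differed by 0.49 there and did not pass (limma, adjusted p = 0.167).

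Epcam passed on day 7, by 0.85 at 500 ppm (limma, adjusted p = 0.0123; background 2.04% higher) and by 0.80 at 1000 ppm (limma, adjusted p = 0.0258; background 1.23% higher). It read 894.2, 932.8 and 817.7 at 500 ppm and 703, 794 and 1094 at 1000 ppm, all above the day 7 controls at 401.1, 534.9 and 538.2. How many other probesets separated in this way on day 7 was not counted. Timp1 passed on day 7 at 500 ppm by 0.93 (limma, adjusted p = 0.0328), with readings of 516.1 and 486.6 on the 2 arrays that listed it and of 242.1, 226.8 and 333 in controls. With run as a block the differences were 0.51 and 0.75 for Fcgr2b at 500 and 1000 ppm, 0.38 for Lyve1, 0.47 and 0.36 for Epcam at 500 and 1000 ppm and 0.58 for Timp1. None of these 6 passed (limma, adjusted p of 0.502 to 0.931), and grouping the arrays by title gave 1 call in all over the 12 comparisons. The replicates of a group lay in few runs, so that the block widened the variance of the single-day comparisons 1.52 to 3.98 times.

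Fcgr2b was also the 1 gene of 24 tested whose 1000 ppm response differed between day 14 and day 1, where 0.477% of all probesets had a lower response on day 14 and 0.539% a higher one. The response was 0.76 ± 0.16 on day 1 and -0.25 ± 0.16 on day 14 (limma, adjusted p = 0.443 for the latter), and the difference of the 2 was -1.01 ± 0.23 (limma, adjusted p = 0.0242). Kdr, with readings of 2609, 2528 and 2432 at 1000 ppm on day 1 and of 2379, 2766 and 2850 on day 14, had a difference of -0.78 that missed the threshold (limma, adjusted p = 0.0503). The median over the 8 endothelial genes tested was -0.61, 7 of 8 negative, against 0.06 over the stellate and matrix genes and 0.03 over all probesets, which quantile scaling moved to -0.26. With run as a block the Fcgr2b difference was -0.79 (limma, adjusted p = 0.725). All 3 rats of the 1000 ppm group on day 14 and 2 of the 3 day 1 controls were in run 1.

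**Figure D4:**
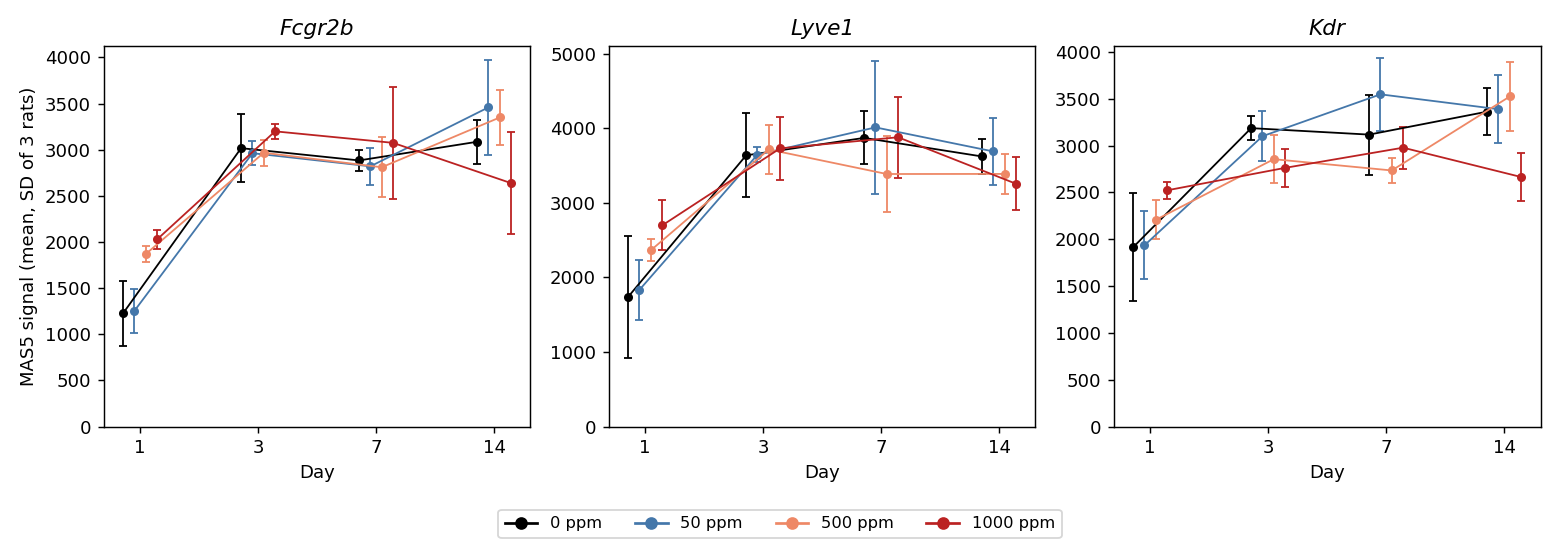
MAS5 signal (linear, mean ± SD of 3 rats) of Fcgr2b, Lyve1 and Kdr by day, 1 line per PB dose. On day 1 the 500 and 1000 ppm means lie above those of 0 and 50 ppm, and on day 14 the Kdr mean at 1000 ppm, 2664.9, lies below those of the other doses.

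A single model of dose, day and their combination tested 23 members, the same genes as at 1000 ppm over the 4 days. For dose 3 passed, Pdgfrb (limma F test, adjusted p = 0.000249), Epcam (0.000342) and Ecm1 (0.0287), where 14% of all probesets passed. For day 9 passed, the 8 genes above and Tek (limma F test, adjusted p = 0.0395), where 6.98% passed. For the combination 1 passed, Fcgr2b (limma F test, adjusted p = 0.0315), where 5.48% did. The counts for dose and for the combination are not far from the shares among all probesets.

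Collagen chains that assemble together were then compared rat by rat, after the mean of each group was removed. Of 6 pairs planned 4 could be computed, and p-values came from 100000 permutations of the arrays, adjusted over the 4. Both Col1a1 pairs used its brighter probeset. The dimmer one, which had the opposite sign for dose, was not used for them. Col1a1 and Col3a1 varied together with r = 0.660 (permutation p = 6.0e-05, adjusted 2.4e-04) and rho = 0.654 (permutation p = 1.2e-04, adjusted 4.8e-04, n = 46), and r was 0.623 without the 2 arrays farthest from the median. Col1a1 and Col1a2, the chains of type I collagen, gave r = 0.481 (permutation p = 0.00846, adjusted 0.0113) and rho = 0.466 (permutation p = 0.0128, adjusted 0.017, n = 46), and 0.457 without those arrays. Dcn and Lum, proteoglycans that bind the same fibrils, gave r = 0.664 (permutation p = 0.00151, adjusted 0.00302) and rho = 0.661 (permutation p = 0.00108, adjusted 0.00216, n = 35), and 0.595 without them. Within runs, r was positive in 6 of 6 for both Col1a1 pairs (0.098 to 0.841 with Col3a1 and 0.06 to 0.733 with Col1a2) and in 4 of 5 for Dcn and Lum (-0.452 to 0.926).

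For Col4a1 and Col4a2, the chains of basement membrane collagen, r was 0.131 (permutation p = 0.392, adjusted 0.392) and rho 0.142 (permutation p = 0.366, adjusted 0.366, n = 48), with r of 0.164 without the 2 farthest arrays and a positive r in 3 of 6 runs (-0.584 to 0.624). These genes lie head to head, and the 76 bases between their RefSeq starts (GRCr8, chr16:84885521-84885596, plus strand, 78.9% G and C) are shown because both genes start from this one interval.
Col4a1-Col4a2 interval: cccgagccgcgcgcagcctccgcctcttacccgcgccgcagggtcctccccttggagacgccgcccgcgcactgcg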

How the data were processed

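MAS5 signal intensities, deposited by the authors, were made by combining and averaging the probes of each probeset and scaling the mean of each array to 500. Signals given as Null were treated as missing, since the sources used here do not state their meaning. Arrays were grouped by the animal number in their description and the study's design table. The log2 of each signal was taken, probesets were kept if 3 or more arrays read 90 or higher, and 16 group means were fitted with limma 3.58.1 in R 4.3.3, with Benjamini-Hochberg adjustment over all probesets of a comparison and a threshold of 0.05. A comparison was tested where each of its groups had at least 2 listed signals. Residual correlations were tested by permutation in Python 3.11.15. A second deposited table of 776 probesets was not used.

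Gene symbols came from the platform annotation, with 20826 probesets of 1 symbol, 436 of several and 9780 of none, and a gene was read from its brightest probeset of 1 symbol. The members, the other gene lists and the rules for naming genes were chosen with earlier results of these data known. Every member on the array could be named, and of each other list at most 8 genes, those of smallest adjusted p among the genes past the threshold. The number of arrays limits the precision. Another grouping, scaling, filter, pseudocount, a run block, a replicate block and leaving out arrays were tried.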

Additional observations from a re-analysis of the deposited data

Results flagged for a closer look

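The response of Fcgr2b to 1000 ppm PB differed between day 14 and day 1 by -1.01 ± 0.23 on the log2 scale (limma, adjusted p = 0.0242), which was a test of the difference between 2 times under the same contrast. It was lost without replicate 2 of the day 1 controls (-0.80, adjusted p = 0.0722), replicate 1 of the day 14 controls (-0.95, adjusted p = 0.0514), replicate 3 of 1000 ppm on day 1 (-0.97, adjusted p = 0.0627) or replicate 1 of 1000 ppm on day 14 (-0.82, adjusted p = 0.0709), all by limma. With arrays grouped by title the difference was also -1.01 and its adjusted p was 0.113.

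The effect of dose on Fcgr2b also varied with day over all 4 doses and days (limma F test, adjusted p = 0.0315). No member, and so not Fcgr2b, passed this test with run as a fixed block, with arrays grouped by title or without replicate 3 of 1000 ppm on day 1.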

How the results depend on the processing

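The 8 members higher on day 14 than on day 1 stayed past the threshold under 12 of 13 other settings, and 7 did with absent and low signals set to 90. Grouping by title gave 0 members higher at 500 ppm, 0 with a lower response on day 14 at 1000 ppm, 1 higher in the single-day comparisons and 0 for dose by day. Leaving out the 7 arrays in doubt gave 3 higher in the single-day comparisons. Counting any probeset of a gene gave 2 higher at 500 ppm and 2 at 1000 ppm. Dividing by the array median gave 2 lower at 500 ppm, 3 lower at 1000 ppm, 6 with a lower response on day 14, 8 lower on single days and 4 for dose by day, and dividing by the array mean gave 2, 3, 2, 2 and 2, with 3 higher on single days. Quantile scaling gave 2 lower at 1000 ppm, 6 with a lower response on day 14, 5 lower on single days and 2 for dose by day. With run as a fixed block there were 2 lower at 500 ppm, 0 with a lower response, 0 higher on single days and 0 for dose by day, and with run as a random block 2 with a lower response, 2 lower on single days and 3 for dose by day. A pseudocount of 50 gave 2 with a lower response and 2 lower on single days, as did a filter over 24 arrays. Setting absent and low signals to 90 gave 1 lower on single days, and without the arrays of run 1, an alternative chosen after seeing the data, 0 were higher there. That setting could not be fitted for comparisons averaged over days. The median difference in response between day 14 and day 1 became -0.2764 (array median) and -0.2106 (run block) for stellate and matrix genes, and -0.8793 (quantile), -0.9403 (array median) and -0.217 (run block) for endothelial genes. The cause of these changes was not tested.

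Leaving out 1 array in turn gave 1 to 3 members higher and 1 to 4 lower at 1000 ppm, 1 to 2 lower at 500 ppm, 7 to 9 higher on day 14, 0 to 3 with a lower response, 3 to 8 higher and 0 to 2 lower on single days, 3 to 5 for dose, 7 to 9 for day and 0 to 4 for dose by day, with an endothelial median difference in response of -0.8077 to -0.4768. At 500 ppm Ecm1 joined without replicate 2 of 0 ppm on day 3, replicate 1 of 0 ppm on day 7, or replicate 2 or 3 of 500 ppm on day 14. On single days the count fell to 3 without replicate 2 of 0 ppm on day 1 or replicate 1 of 0 ppm on day 7. With a replicate block 2 members had a lower response on day 14, 1 was lower on single days and 2 passed for dose by day. Replicate numbers follow accession order, and the sources used here give no pairing of rats by number. What arrays of the same number share was not tested. The mean correlation of deviations was 0.0436 between arrays of the same number and -0.0218 between others, and 36 of 48 arrays correlated best with their own number. The pairs Krt7 with Krt19 and Kdr with Flt1 were not computed, since Krt7 was listed on 0 arrays and the Flt1 probeset that the rule chose, the brightest, on 3. The dimmer Flt1 probeset, listed on 36, was not used for it.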
